A study of Mus musculus with 12 samples.

Results

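The dual-specificity MAP kinase phosphatase genes Dusp1, Dusp2, Dusp3, Dusp4, Dusp5, Dusp6, Dusp7, Dusp8, Dusp10 and Dusp16 were followed across all labelled libraries of an RNA sequencing study of RAW 264.7 cells, a mouse macrophage-like line of BALB/c origin. The genes were taken by name from the deposited table, and 10 of 10 were found among its 24421 gene symbols. Cells were Parp14 -/- (knockout, KO) or wild type (WT). KO cells had received 2 h of lipopolysaccharide (LPS), the bacterial cell wall component sensed by TLR4, or were untreated. WT cells had received 2 h of LPS with a Jak kinase inhibitor, LPS alone, or the inhibitor alone, or were untreated. This gave 6 groups of 2 libraries. The sources used here give neither the identity and dose of the inhibitor nor how many KO clones were pooled or used, and KO libraries with the inhibitor were not analysed here. The labels name no separate cultures, so p-values measure the spread between these libraries, which may be technical.

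MAP kinases (ERK, p38 and JNK) are switched on by phosphorylation of a threonine and a tyrosine in their activation loop, and dual-specificity phosphatases remove both phosphates. Several of these phosphatase genes are themselves induced by the kinases they switch off, which forms a negative feedback loop. In mouse macrophages DUSP1 is known for limiting p38 activity and cytokine output after LPS. The family is grouped here into the nuclear inducible enzymes DUSP1, DUSP2, DUSP4 and DUSP5, the cytoplasmic ERK-selective enzymes DUSP6 and DUSP7, the enzymes DUSP8, DUSP10 and DUSP16, which prefer JNK and p38, and DUSP3, a small phosphatase that lacks the MAP kinase binding domain.

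Levels are in CPM, scaled here to reads in genes, given as mean ± SD of n = 2 libraries or for replicate 1 and then 2. A change is a difference on the scale of log2(CPM + 1), the group named first minus the second, with its limma standard error (SE) and a p adjusted over the 10899 genes tested, and a gene was called at an adjusted p under 0.05. A library had 35.9 to 45.7 M reads in genes. Parp14 reads were at 34.9 to 40.5 CPM in KO cells with LPS, 10 to 12 CPM in untreated KO cells, 315 to 419 CPM in WT cells with LPS and 76.4 to 99.7 CPM in untreated WT cells. In WT cells with the inhibitor Parp14 was at 110 to 138 CPM with LPS and 74.7 to 102 CPM without it. Of 11 macrophage marker symbols 10 were in the table, the other being Emr1, an older symbol of the listed Adgre1, and all 10 were at 1 CPM or more in every library. All 18 markers of T cells, B cells, neutrophils, epithelium, fibroblasts and endothelium were under 1 CPM in every library, with a summed level of 0.488 to 1.18 CPM.

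The make-up of the family differed between cells with and without LPS. In bulk RNA, fewer cells expressing a gene and less RNA per cell cannot be told apart. Levels were set per kilobase of exonic length for a rough comparison between genes. That length is the union of all annotated exons of a gene, not the length of the transcripts expressed. Shares and orders of genes, above all of Dusp1, whose annotated gene extends far upstream of its RefSeq start, depend on it. The 10 genes summed to 273 and 235 CPM per kb in KO cells with LPS and to 73.5 and 68.1 in untreated KO cells. In WT cells the sums were 204 and 187 CPM per kb with LPS and 64.8 and 59.1 untreated. In KO cells with LPS, Dusp2 (29.1% of the family's level per kb) and Dusp4 (26.5%) ranked above Dusp1 (13.7%). In WT cells with LPS, Dusp2 held 29.4%, Dusp1 26.5% and Dusp4 14.6%. Dusp3 held 11.8% in WT cells with LPS and 54.8% in untreated WT cells, and Dusp6 held 0.669% with LPS and 12.9% untreated.

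The order of levels per kb in KO cells with LPS was Dusp2, Dusp4, Dusp1, Dusp5, Dusp3, Dusp16, Dusp6, Dusp7, Dusp8 and Dusp10. The libraries of Dusp2 and Dusp4 overlapped in this order, and no other neighbours did. In WT cells with LPS the order was Dusp2, Dusp1, Dusp4, Dusp3, Dusp5, Dusp16, Dusp7, Dusp6, Dusp8 and Dusp10, with an overlap of Dusp2 and Dusp1 alone. In untreated WT cells the order was Dusp3, Dusp6, Dusp7, Dusp2, Dusp4, Dusp16, Dusp1, Dusp10, Dusp5 and Dusp8, where the libraries of Dusp7 and Dusp2 overlapped.

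**Figure D1:**
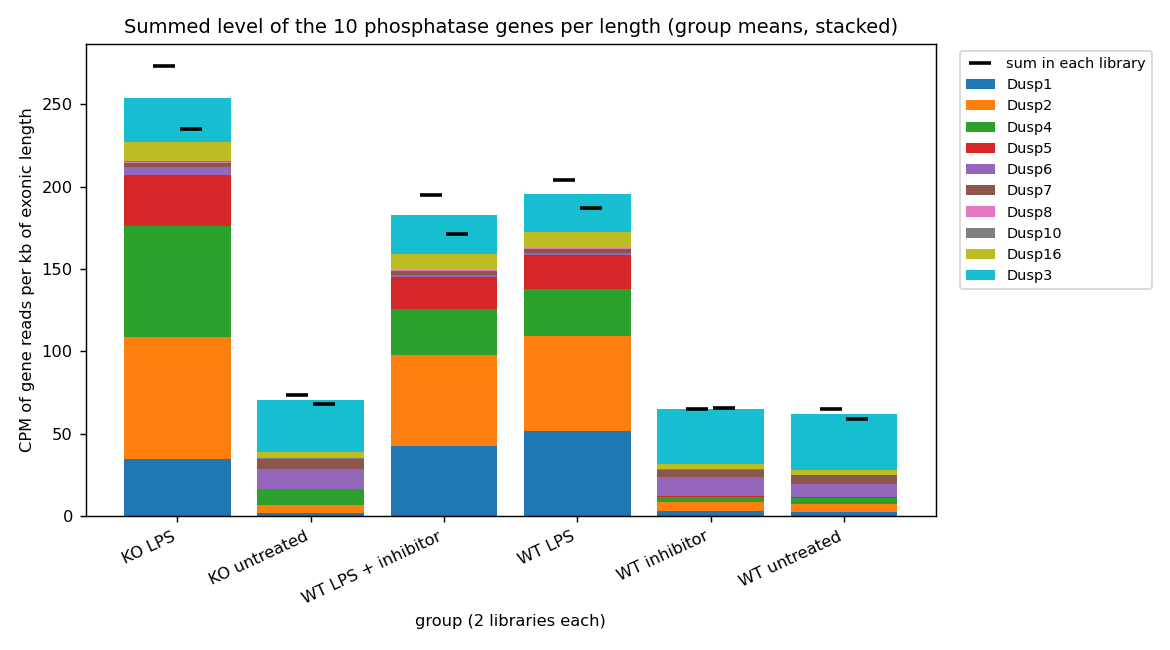
Stacked bars give the mean level of each gene in CPM per kilobase of exonic length in the 6 groups, and black marks give the sum in each of the 2 libraries of a group. The sums lie at 171 to 273 in groups with LPS and at 59.1 to 73.5 in groups without it.

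LPS raised Dusp1, Dusp2, Dusp4, Dusp5, Dusp8 and Dusp16 and lowered Dusp3, Dusp6, Dusp7 and Dusp10, with log2 changes from -1.31 to 5.43 in KO cells and from -2.32 to 4.70 in WT cells. In KO cells 6 of the 10 genes were called higher, against 13.9% of all genes tested, and 4 lower, against 52.7%. WT cells gave the same calls for each gene, 6 higher against 13.7% and 4 lower against 53.6% of all genes. The KO fall of Dusp3 did not hold under other scalings, as given with that gene. Dusp5 and Dusp8 reached the testing minimum of 1 CPM in at least 2 libraries through the groups with LPS, and Dusp10 through the groups without it, so these 3 had to differ to be tested. Of the 7 other genes 4 were called higher and 3 lower in either genotype. The median of all genes shifted by -0.29 in KO and -0.30 in WT cells with this scaling, but by -0.03 in KO and -0.04 in WT cells once libraries were scaled by the median of ratios. With that rescaling 26.8% of all genes were higher and 33% lower in KO cells and 26.5% were higher and 32.4% lower in WT cells, while the family had 6 higher and 3 lower in either genotype, since Dusp10 in WT and Dusp3 in KO cells were no longer called.

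**Figure D2:**
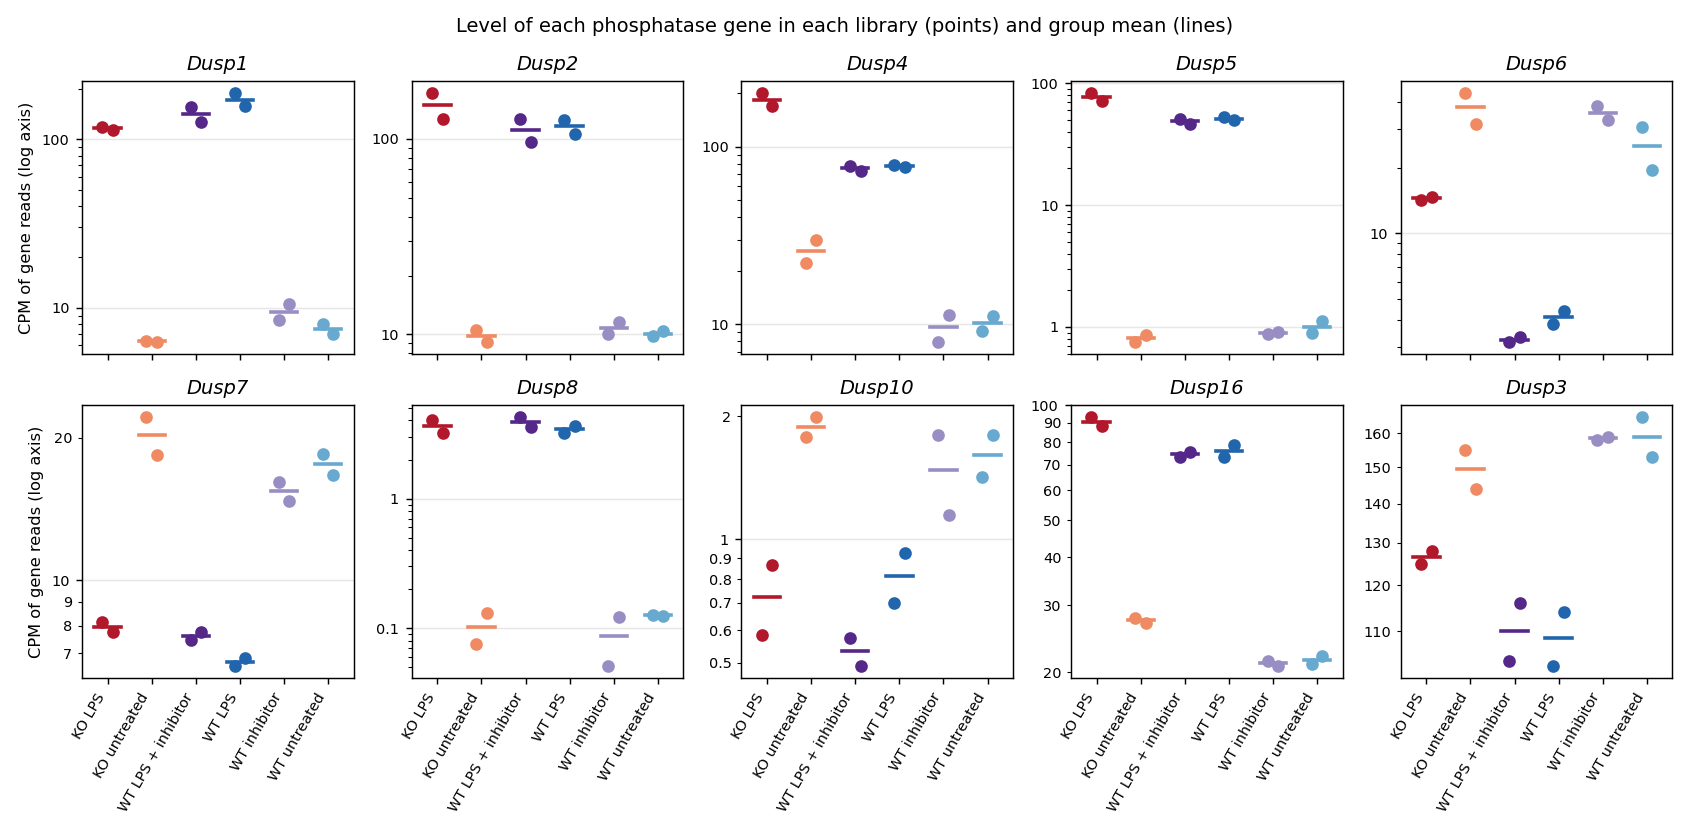
Each panel shows a gene; points are the 2 libraries of a group and lines the group means, in CPM of gene reads on a log axis whose range differs between panels. Dusp1, Dusp2, Dusp4, Dusp5, Dusp8 and Dusp16 lie higher in every library with LPS than in any without it, and Dusp3, Dusp6, Dusp7 and Dusp10 lie lower.

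Of the nuclear inducible enzymes, Dusp5, which is selective for ERK, had the largest log2 change of the family. It was at 82.6 and 72.1 CPM in KO cells with LPS and 0.752 and 0.863 CPM in untreated KO cells. In WT cells it was at 52.6 and 49.6 CPM with LPS and 0.887 and 1.12 CPM untreated. The untreated levels rest on 63 reads over both KO libraries and 80 over both WT libraries. The change was 5.43 (SE 0.0978, adjusted p = 3.97e-10) in KO and 4.70 (SE 0.0978, adjusted p = 9.48e-10) in WT cells. Dusp5 reached the testing minimum through the groups with LPS, so these p-values are not independent support for a rise.

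Dusp1 (MKP-1) acts on p38, JNK and ERK, and its exons overlap those of Ergic1 on the opposite strand, whose reads cannot be told apart here. Dusp1 was at 118 and 114 CPM in KO cells with LPS and 6.39 and 6.27 CPM untreated. In WT cells it was at 187 and 157 CPM with LPS and 7.99 and 7.02 CPM untreated, so that the mean ratio of LPS to untreated was 18.2 in KO and 22.9 in WT cells. Dusp2 (PAC-1), a nuclear phosphatase known from activated lymphocytes, was at 170 and 126 CPM in KO cells with LPS and 10.6 and 9.15 CPM untreated. Its WT levels were 125 and 106 CPM with LPS and 9.81 and 10.4 CPM untreated, and its log2 change was 3.76 (SE 0.165, adjusted p = 7.45e-08) in KO and 3.38 (SE 0.165, adjusted p = 1.4e-07) in WT cells. Dusp4 (MKP-2; chr8:34807297-34819894, plus strand), which acts on ERK and JNK, was at 200 and 169 CPM with LPS and 22.2 and 29.9 CPM untreated in KO cells. In WT cells Dusp4 was at 78.7 and 77.4 CPM with LPS and 9.15 and 11.2 CPM untreated. The ratio of the Dusp4 means was thus 7.09 in KO and 7.66 in WT cells, from different starting levels.

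Both cytoplasmic ERK-selective genes fell. Dusp6 (MKP-3; chr10:99263231-99267489, plus strand) was at 14.2 and 14.7 CPM in KO cells with LPS and 43.7 and 31.7 CPM untreated, which gave -1.31 on the log2 scale (SE 0.198, adjusted p = 0.000242). In WT cells Dusp6 was at 3.83 and 4.39 CPM with LPS and 30.7 and 19.4 CPM untreated, a change of -2.32 (SE 0.198, adjusted p = 5e-06). The untreated replicates of Dusp6 lay farther apart than those with LPS, and replicate 1 was the higher in both genotypes. Dusp7 averaged 7.96 ± 0.269 CPM with LPS and 20.2 ± 2.62 CPM untreated in KO cells. In WT cells it averaged 6.71 ± 0.165 CPM with LPS and 17.6 ± 1.25 CPM untreated, or 0.381 of the untreated level.

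Of the JNK and p38 phosphatases, Dusp16 was higher with LPS. Dusp8 was also higher and Dusp10 lower, but each reached the testing minimum only through the groups where it was high. Dusp16 (MKP-7) was at 93.1 and 88.1 CPM with LPS and 27.7 and 27.0 CPM untreated in KO cells, and at 73.1 and 78.9 CPM with LPS and 21.0 and 22.0 CPM untreated in WT cells. Its log2 change was 1.69 in KO and 1.77 in WT cells (SE 0.0638 each). Dusp8 had 281 reads over both KO libraries with LPS and 8 over both untreated, and 296 and 10 in WT cells. The ratio of its mean levels was 35.1 in KO and 27.2 in WT cells, while the log2 change on the scale with 1 CPM added was 2.06 and 1.97, since the untreated levels were 0.131 CPM or less. In edgeR's count model the Dusp8 change was 5.38 in KO and 5.04 in WT cells. Dusp10 (MKP-5) reached the testing minimum through the groups without LPS, so its p-values here are not independent support for a fall. It was at 0.584 and 0.866 CPM with LPS and 1.78 and 1.99 CPM untreated in KO cells, a change of -0.74 (SE 0.148, adjusted p = 0.00138). In WT cells Dusp10 was at 0.701 and 0.926 CPM with LPS and 1.42 and 1.80 CPM untreated, a change of -0.52 (SE 0.148, adjusted p = 0.0102). That WT call was lost after rescaling by the median of ratios (adjusted p = 0.0539), with edgeR (0.0604), with DESeq2 (0.128), without replicate 1 of WT cells with LPS (0.0699) and without replicate 2 of untreated WT cells (0.0745).

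Dusp3 (VHR) was the most abundant member without LPS. It was at 125 and 128 CPM with LPS and 155 and 144 CPM untreated in KO cells, and at 103 and 114 CPM with LPS and 165 and 153 CPM untreated in WT cells. The WT change was -0.54 (SE 0.0772, adjusted p = 0.000154), against -0.26 after rescaling by the median of ratios. The KO change of -0.24 (SE 0.0772, adjusted p = 0.0196) was about the shift of all genes and turned to 0.04 (adjusted p = 0.712) with that rescaling, to 0.05 with edgeR and to 0.08 with DESeq2. It also lost its call without replicate 1 of KO cells with LPS (adjusted p = 0.0844), replicate 2 of KO cells with LPS (0.0519) or replicate 1 of untreated KO cells (0.128).

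**Figure D3:**
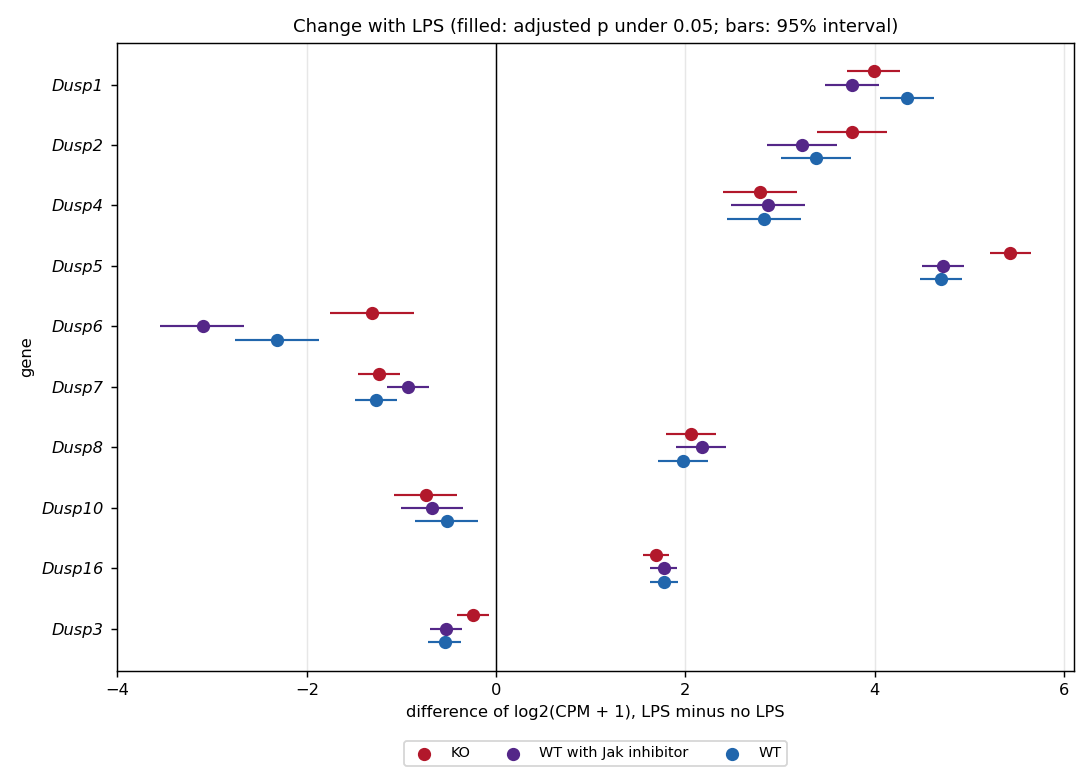
Points give the difference of log2(CPM + 1) between LPS and no LPS for KO cells, WT cells with the Jak inhibitor and WT cells; bars are 95% intervals of the limma fit and filled points have an adjusted p under 0.05. All points are filled, from -3.10 for Dusp6 with the inhibitor to 5.43 for Dusp5 in KO cells; the small KO fall of Dusp3 (-0.24) turned to 0.04 under the median of ratios, 0.05 with edgeR and 0.08 with DESeq2.

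The upstream sequences of the family were searched for response elements of signal-activated factors. RefSeq windows of 300 bases on GRCm38.p6, from 250 before to 50 after the start, were found for 9 of the 10 genes, 5 of the 6 that LPS raised and the 4 that it lowered, with none for Dusp4. They are from the C57BL/6J reference, not from BALB/c. The cAMP response element TGACGTCA, the palindrome bound by CREB and ATF factors, stood in the windows of Dusp1 and Dusp8, against 1.79% of 32851 windows in the table. The CArG box, the site of serum response factor, stood in the window of Dusp5 and in 1.63% of all windows. Matches to the AP-1 motif TGANTCA (7.81% of all windows), the NF-kB motif (8.46%) and the STAT motif TTCNNNGAA (8.30%) were found in 0 of the 9, which says only that these letters are not in these windows. Both strands were searched, and no matches overlapped. The 3 windows with a match are shown 5′ to 3′ on the gene's strand with the matches in capitals; a match is not evidence of binding.
Dusp1, chr17:26508423-26508722, minus strand: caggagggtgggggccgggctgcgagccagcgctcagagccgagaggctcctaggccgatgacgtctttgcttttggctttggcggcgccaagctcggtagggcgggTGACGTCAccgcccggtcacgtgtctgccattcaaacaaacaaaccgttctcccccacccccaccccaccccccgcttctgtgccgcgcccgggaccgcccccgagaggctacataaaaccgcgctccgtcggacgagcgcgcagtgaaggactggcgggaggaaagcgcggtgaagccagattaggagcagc
Dusp5, chr19:53528895-53529194, plus strand: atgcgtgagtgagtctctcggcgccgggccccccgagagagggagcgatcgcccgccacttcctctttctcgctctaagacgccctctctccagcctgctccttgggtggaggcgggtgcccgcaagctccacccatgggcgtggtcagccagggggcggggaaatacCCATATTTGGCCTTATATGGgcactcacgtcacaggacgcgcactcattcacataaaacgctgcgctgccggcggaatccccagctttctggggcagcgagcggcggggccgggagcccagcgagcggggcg
Dusp8, chr7:142095235-142095534, minus strand: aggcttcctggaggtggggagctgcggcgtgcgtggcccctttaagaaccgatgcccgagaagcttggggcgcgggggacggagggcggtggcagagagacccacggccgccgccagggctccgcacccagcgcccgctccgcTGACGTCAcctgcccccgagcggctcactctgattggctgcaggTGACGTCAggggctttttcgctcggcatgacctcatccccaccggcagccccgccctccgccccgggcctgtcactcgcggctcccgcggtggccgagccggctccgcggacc
GENCODE M21 places Dusp1 at chr17:26505590-26562128 (minus strand), Dusp5 at chr19:53529109-53542431 (plus strand) and Dusp8 at chr7:142079490-142095843 (minus strand), all protein-coding, and in all 3 the RefSeq start lies inside the GENCODE gene. The Dusp1 match starts 143 bases before the gene's start. The Dusp5 pair starts 82 and 72 bases before it and lies side by side, and the Dusp8 pair starts 107 and 63 bases before it.

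Untreated KO and WT cells differed most in Dusp4. It averaged 26.0 ± 5.46 CPM in KO and 10.2 ± 1.46 CPM in WT cells (SD, n = 2 each), 2.55 times the WT level, a log2 difference of 1.26 (SE 0.173, adjusted p = 0.00154) with no overlap of libraries. Dusp16 was also higher, 27.4 ± 0.493 CPM in KO and 21.5 ± 0.741 CPM in WT cells, by 0.33 (SE 0.0638, adjusted p = 0.00972). The Dusp16 call was lost in a fit of only these groups (adjusted p = 0.0696), without replicate 1 of untreated KO cells (0.0719) and without replicate 1 of untreated WT cells (0.093). These 2 of 10 genes called higher stood against 4.31% of all genes, and 0 of 10 called lower against 5.37%; 3 genes had an unadjusted p under 0.05 in either direction, and edgeR and DESeq2 also called 0 lower. Dusp6 was at 43.7 and 31.7 CPM in KO and 30.7 and 19.4 CPM in WT cells, a change of 0.59 (SE 0.198, 95% interval 0.14 to 1.03) that was not called (adjusted p = 0.108). It was called with the replicate number as a block (adjusted p = 0.00881), with DESeq2 (0.0413) and without replicate 1 of untreated WT cells (0.0251). The other 7 genes had changes from -0.21 for Dusp1 to 0.19 for Dusp7, none called.

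After LPS, KO and WT cells differed in both directions. The largest difference was in Dusp6, at 14.2 and 14.7 CPM in KO and 3.83 and 4.39 CPM in WT cells, 3.51 times the WT level (log2 change 1.60, SE 0.198, adjusted p = 0.000657). Dusp4 was higher in KO cells by 1.23 (SE 0.173, adjusted p = 0.00133) and Dusp5 by 0.59 (SE 0.0978, adjusted p = 0.00342). Dusp1 went the other way: its KO libraries, at 118 and 114 CPM, lay below both WT libraries, at 187 and 157 CPM (change -0.56, SE 0.126, adjusted p = 0.0153). In all 4 of 10 genes were called higher, against 6.19% of all genes, and 1 lower, against 7.66%. The nuclear inducible group held calls in both directions, 2 higher and 1 lower among its 4 members.

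The Dusp1 call did not hold without replicate 1 of KO cells with LPS (adjusted p = 0.0651), without replicate 2 of KO cells with LPS (0.0844) or without replicate 1 of WT cells with LPS (0.118), where the changes were -0.59, -0.54 and -0.44. Dusp16 was higher by 0.25 (SE 0.0638, adjusted p = 0.0283), a call lost with the deposited scaling (0.0766), in a fit of only these groups (0.133) and without replicate 1 of KO cells with LPS (0.173), replicate 2 of KO cells with LPS (0.0631) or replicate 1 of WT cells with LPS (0.18). Dusp2 was at 170 and 126 CPM in KO and 125 and 106 CPM in WT cells, libraries that stood just apart, and Dusp3 at 125 and 128 CPM in KO and 103 and 114 CPM in WT cells. Neither was called (adjusted p = 0.225 for Dusp2 and 0.107 for Dusp3), and with the replicate block both were (0.0321 and 0.0183). Dusp7, Dusp8 and Dusp10 were not called, with changes of 0.22 (95% interval 0.00 to 0.44), 0.05 (-0.21 to 0.32) and -0.07 (-0.41 to 0.26).

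**Figure D4:**
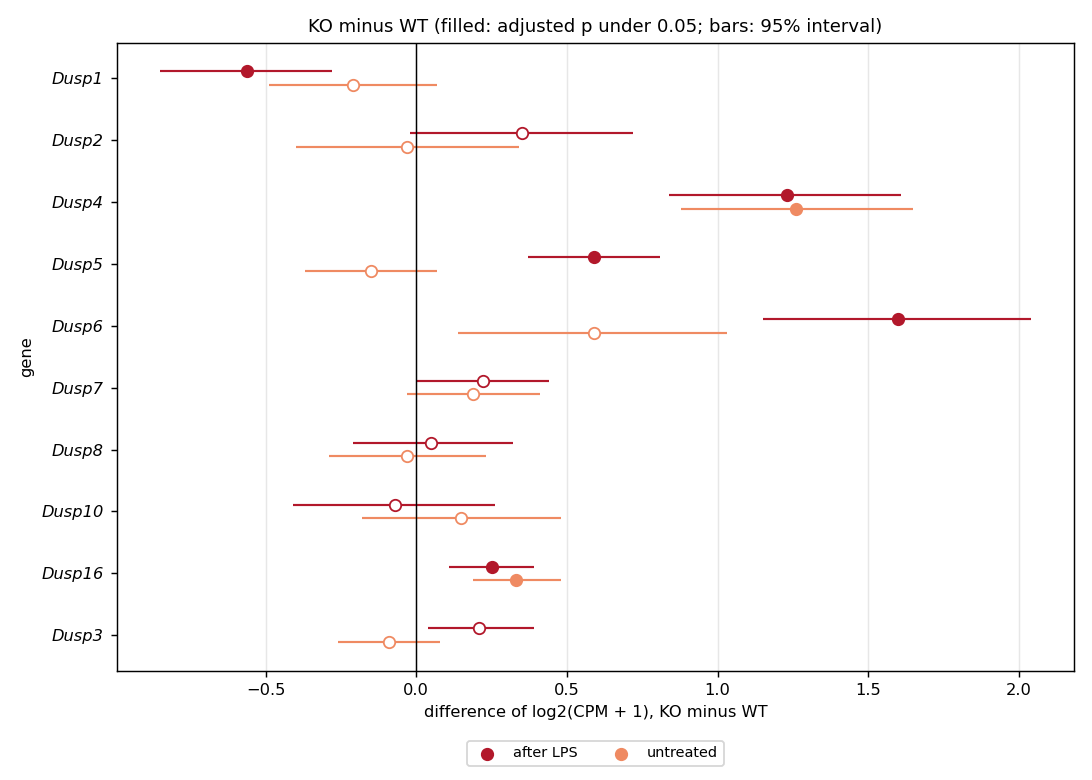
Points give KO minus WT differences of log2(CPM + 1) after LPS and untreated, with 95% intervals; filled points have an adjusted p under 0.05. Dusp4 and Dusp16 are filled in both conditions, and Dusp5, Dusp6 and, in the other direction, Dusp1 are filled after LPS and open in untreated cells.

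Whether LPS acted differently in KO and WT cells was tested as the difference of the 2 responses. For Dusp6 it was 1.01 (SE 0.28, 95% interval 0.38 to 1.64), the level with LPS being 0.383 of untreated in KO and 0.164 in WT cells. For Dusp5 it was 0.73 (SE 0.138, 95% interval 0.42 to 1.04). Neither was called by limma over all genes (adjusted p = 0.301 for Dusp6 and 0.0658 for Dusp5). The fit with the replicate block called both (0.0123 for Dusp6 and 0.00406 for Dusp5) and DESeq2 called Dusp6 (0.0187) but not Dusp5 (0.147). With edgeR the adjusted p was 0.318 for Dusp6 and 0.269 for Dusp5. The same test gave -0.04 for Dusp4 (95% interval -0.59 to 0.51) and -0.35 for Dusp1 (-0.75 to 0.05), so a difference of response was not shown for either gene. Of the 10 genes 0 were called, against 0.413% of all genes, 3 had an unadjusted p under 0.05, and edgeR called 0 and DESeq2 1.

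The Jak inhibitor is aimed at Jak kinases, which carry the signal of interferons and other cytokines. How fully it blocked them was not tested, so a change present with it is not shown to be independent of Jak kinases. In WT cells with LPS, Parp14 was at 110 and 138 CPM with the inhibitor and 315 and 419 CPM without it. The LPS response of the family was present with the inhibitor: the same 6 genes were called higher, against 13.5% of all genes, and the same 4 lower, against 50.8%. Of the 7 genes at 1 CPM on both sides 4 were higher and 3 lower. Scaled by the median of ratios, 26.5% of all genes were higher and 32.4% lower, and the family again had 6 and 4. Dusp5 was at 51.1 and 46.5 CPM with LPS and the inhibitor and 0.876 and 0.907 CPM with the inhibitor alone. Dusp4 was at 78.2 and 73.2 CPM with both and 7.94 and 11.3 CPM with the inhibitor alone. Dusp6 was at 3.17 and 3.33 CPM with both and 38.2 and 33.1 CPM with the inhibitor alone, a change of -3.10 (SE 0.198, adjusted p = 7.99e-07).

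Set against LPS alone, LPS with the inhibitor changed 0 of 10 genes by limma, against 1.11% of all genes, and 0 had an unadjusted p under 0.05; edgeR and DESeq2 also called 0. Dusp1 was at 156 and 127 CPM with both and 187 and 157 CPM with LPS alone, or 0.823 of the mean level, libraries that were near each other but did not overlap (change -0.28, SE 0.126, 95% interval -0.56 to 0.00, adjusted p = 0.695). Dusp4 differed by -0.04 (-0.43 to 0.34), Dusp5 by -0.07 (-0.29 to 0.15), Dusp16 by -0.03 (-0.17 to 0.11) and Dusp6 by -0.26 (-0.71 to 0.18), at 0.791 of the mean level. Dusp10, at 0.574 and 0.491 CPM with both and 0.701 and 0.926 CPM with LPS alone, was at 0.655 of the mean level (change -0.24, -0.57 to 0.09). Without LPS the inhibitor again gave 0 calls among the 10 genes and 0% of all genes by limma, while 111 of all genes had an unadjusted p under 0.05, edgeR called 0 and DESeq2 2. Among the 10 genes Dusp1 and Dusp6 had an unadjusted p under 0.05, and edgeR and DESeq2 called 0 of the 10. Dusp6 was at 38.2 and 33.1 CPM with the inhibitor and 30.7 and 19.4 CPM untreated (change 0.52, 95% interval 0.08 to 0.97), and Dusp1 at 8.53 and 10.5 CPM with the inhibitor and 7.99 and 7.02 CPM untreated (0.30, 0.02 to 0.59).

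For the difference of the LPS response with against without the inhibitor, Dusp6 had -0.79 (95% interval -1.42 to -0.16) and Dusp1 -0.59 (-0.99 to -0.19), while Dusp7 had 0.34 (0.03 to 0.66). None was called (adjusted p = 0.577 for Dusp6, 0.425 for Dusp1 and 0.681 for Dusp7); with the replicate block Dusp1 was (0.0399), and Dusp6 (0.0587) and Dusp7 (0.125) were not. In this test 0 of 10 genes were called, against 0.587% of all genes, 3 had an unadjusted p under 0.05, and edgeR and DESeq2 called 0. The comparisons of KO with WT and of the inhibitor with none share the WT libraries. Side by side, relative to WT cells with LPS, Dusp6 was higher by 1.60 in KO cells and had a change of -0.26 with the inhibitor, and Dusp4 was higher by 1.23 in KO cells and had a change of -0.04 with the inhibitor. Dusp1 had negative values in both, -0.56 and -0.28.

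**Figure D5:**
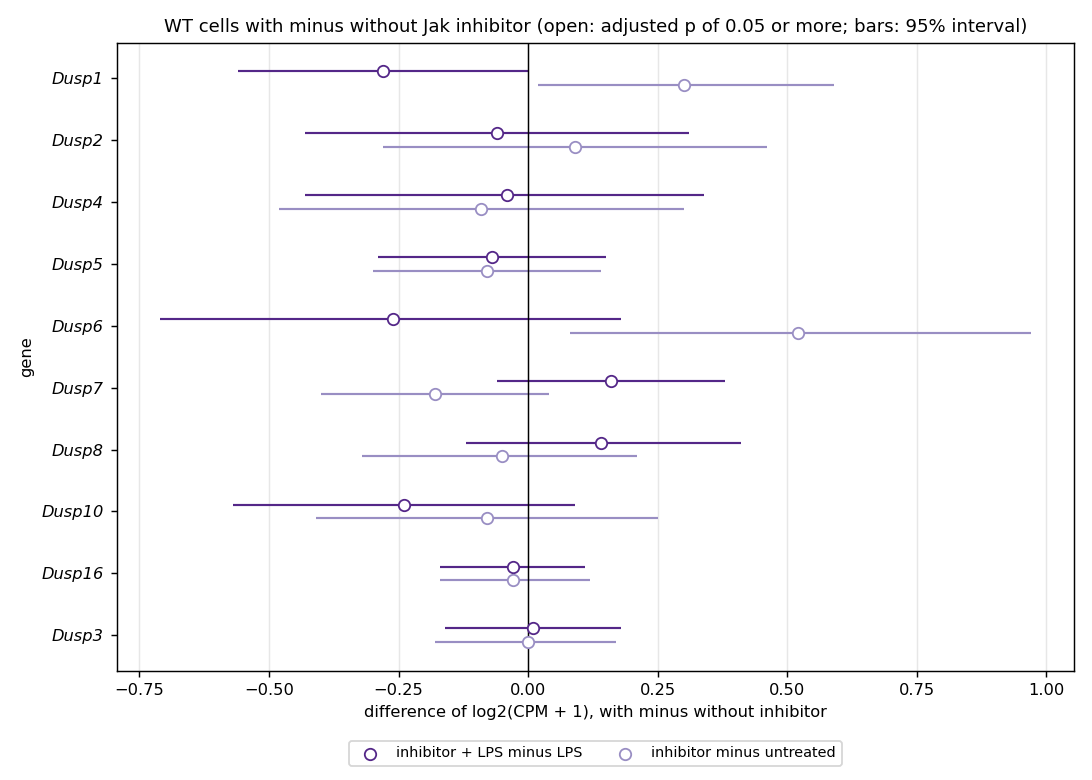
Points give differences of log2(CPM + 1) in WT cells with minus without the Jak inhibitor, in the presence of LPS and in its absence, with 95% intervals. All points are open, since none had an adjusted p under 0.05, and they lie between -0.28 and 0.52.

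Other genes of the MAP kinase pathways were followed from lists. In KO cells, where 13.9% of all genes were called higher with LPS and 52.7% lower, the ERK list had 3 of 14 higher and 8 lower, p38 2 of 13 and 8, and JNK 3 of 14 and 5. Other negative regulators had 7 of 15 higher and 4 lower, and other dual-specificity phosphatases 0 of 11 and 8. After rescaling, with 26.8% of all genes higher and 33% lower, the counts in the same order were 5 and 3, 4 and 6, 8 and 4, 10 and 3, and 0 and 6. In WT cells, 3 of 14 tested ERK cascade genes were called higher with LPS and 7 lower, with a median of -0.16 beside -0.30 for all genes, or 5 and 3 once scaled by the median of ratios. Among all genes in WT cells, 13.7% were higher and 53.6% lower, or 26.5% and 32.4% once so scaled. Map3k8, the kinase that links LPS to ERK, was at 15.4 ± 0.674 CPM with LPS and 7.88 ± 0.346 CPM untreated, a difference of 0.89 (SE 0.112). In the same list Rps6ka2 had a change of 1.09 (SE 0.204) and Mapk7 of -0.83 (SE 0.0989). The p38 cascade had 2 of 13 higher and 10 lower (median -0.56), or 2 and 8 after rescaling. The kinase Rps6ka5 had a change of -1.56 (SE 0.156) and the kinase Map3k4 of -1.50 (SE 0.133). The JNK cascade had 3 of 14 higher and 6 lower (median -0.05), or 6 and 4 after rescaling. Gadd45b, a stress-induced binding partner of MAP kinase kinases, rose by 4.92 (SE 0.126) and Map3k1 fell by 2.78 (SE 0.12) on the log2 scale. Among genes listed as other negative regulators 6 of 15 were higher and 4 lower (median 0.17), or 9 and 3 after rescaling. The list includes Peli1, a ubiquitin ligase of TLR signalling, whose effect on MAP kinases was not tested. Peli1 was at 362 ± 14.6 CPM with LPS and 27.8 ± 0.32 CPM untreated, and Spred2 at 19.8 ± 0.895 CPM with LPS and 40.7 ± 3.16 CPM untreated. Of 11 tested genes among the other dual-specificity phosphatases, 0 were higher with LPS and 7 lower (median -0.44), or 0 and 5 after rescaling. Whether the share that was lower differed from that of all genes was not tested in either genotype. The cofilin phosphatase gene Ssh2 was at 35.6 ± 7.23 CPM with LPS and 89.8 ± 3.79 CPM untreated.

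Between KO and WT cells after LPS, Map3k8 was at 11.5 ± 0.756 CPM in KO and 15.4 ± 0.674 CPM in WT cells (change -0.39, SE 0.112, adjusted p = 0.0439). Map2k1, the ERK-activating kinase MEK1, was at 132 ± 8.63 CPM in KO and 110 ± 3.93 CPM in WT cells (0.26, SE 0.0701, adjusted p = 0.039). Map3k5 (ASK1), a kinase upstream of p38 and JNK, was higher in KO cells by 0.66 (SE 0.0779, adjusted p = 0.000505) and Mapkapk2, the kinase acted on by p38, had a change of -0.44 (SE 0.0737, adjusted p = 0.00365). Mapk7 (ERK5) was at 17.8 ± 0.024 CPM in KO and 13.5 ± 0.844 CPM in WT cells (0.37, SE 0.0989, adjusted p = 0.0334). In this comparison 2 of 14 ERK genes were called higher and 1 lower, 2 of 13 p38 genes higher and 2 lower, and 0 of 14 JNK genes either way. Of 15 other negative regulators 1 was higher and 1 lower, and of 11 other dual-specificity phosphatases 0 were higher and 1 lower, beside 6.19% higher and 7.66% lower among all genes.

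The genes whose patterns lay nearest to each phosphatase were found from the root mean square (RMS) difference of centred log2(CPM + 1) over the 12 libraries. Nearest to Dusp5 were Il6 (0.202) and Cish (0.205), to Dusp1 Csrnp1 (0.205) and Ifih1 (0.208), and to Dusp2 Lilr4b (0.128) and Nfkbia (0.159). Dusp4 lay nearest to Abtb2 (0.184), Dusp8 to Relb (0.0826) and Dusp16 to Grap (0.105) and Birc3 (0.108). Dusp7 lay nearest to Zfp810 (0.0856), Dusp10 to Stard3 (0.12) and Dusp3 to Med24 (0.0534). The nearest to Dusp6 was Tlr4 at 0.41, farther than the nearest gene of any other member. This distance also depends on a gene's own RMS spread, which was 1.29 for Dusp6 and 0.357 for Dusp10. The correlation with the nearest gene was 0.948 for Dusp6 and 0.943 for Dusp10. The RMS spread of the members themselves was 0.238 for Dusp3 to 2.49 for Dusp5. The libraries with LPS share that treatment.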

How the data were processed

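RNA of 12 libraries was sequenced after TruSeq RNA preparation, per the labels' protocols. Values were deposited as CPM for each symbol in each library, and the authors' scaling covered every counted alignment together with 5 HTSeq summary lines; TopHat2 2.1.0, HTSeq and edgeR are named with builds mm10 and GRCm38, per the submitters' processing notes. No source used here gives the annotation or the strand setting. In GENCODE M21 exons of Dusp1, Dusp3, Dusp5 and Dusp8 overlap genes of the opposite strand, whose reads cannot be told apart without strand. A further 4 per-sample columns matched no label and were not used. All values above 0 were whole reads within 0.02 reads (100% in each library), and 58.95 to 64.06% of counted alignments lay in genes.

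CPM were rescaled to gene reads. Testing required 1 CPM or more in 2 or more libraries. limma 3.58.1 (R 4.3.3), using a mean-variance trend, was applied to log2(CPM + 1) as 1 fit of 6 group means (residual degrees of freedom 6), with Benjamini-Hochberg adjustment over 10899 genes. Count tests used edgeR 4.0.16 (quasi-likelihood) and DESeq2 1.42.0 on the recovered reads. Exonic lengths are the union of exons in GENCODE M21 (GRCm38). Figures used matplotlib 3.10.9. The alternatives were adding 0.25 CPM, testing every gene, requiring 5 CPM, median of ratios scaling, the deposited scaling, a replicate block, only the groups compared, and each library left out.

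The members and lists were chosen with earlier results of these data known. Open to naming were all members, up to 3 called genes of each list per comparison with the largest changes and a mean of 5 CPM or more in whichever group was higher, and the 2 nearest genes of each member. Not all of these list genes and nearest genes are named. The labels give replicate numbers 1 and 2. Deviations of same-numbered libraries from their group means went together for all 15 group pairs (correlation over genes 0.468 to 0.737), although the labels name no shared day. The replicate number was therefore used as a block in an alternative fit. The main fit has no block, so its SEs, p-values and shares of all genes ignore this pairing. Blocked values are given where they change a call.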

Additional observations from a re-analysis of the deposited data

How the results depend on the processing

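Of 1232 recomputed changes of the 10 genes, 1201 kept their direction and side of the threshold, 19 lost a call, 9 gained one and 3 reversed; a change of sign between values that were both not called was not counted. The reversed values were all of Dusp3 with LPS in KO cells, 0.04 with median of ratios scaling, 0.05 with edgeR and 0.08 with DESeq2. Among counts of members, untreated KO cells had 1 gene higher in a fit of only the groups compared, and 1 to 2 when each library was left out. The test of the response difference between KO and WT gave 2 genes higher with the replicate block and 1 with DESeq2, against 0. The test with against without the inhibitor gave 1 gene lower with the replicate block, against 0. After LPS, KO cells had 0 to 1 gene lower and 3 to 4 higher when each library was left out. The replicate block changed no call of a member beyond those given with the results. Dusp8 and Dusp10 had no value with the 5 CPM filter. LPS left 3 to 4 genes lower in KO and in WT cells when each library was left out. Adding 0.25 CPM in place of 1 gave 3.45 for Dusp8 and -1.14 for Dusp10 with LPS in KO cells, and 3.29 and -0.81 in WT cells.

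Counts over all genes moved most with the block: 2685 against 1055 for untreated KO and WT cells, 3438 against 1510 after LPS, 413 against 45 for the difference of responses (10 with edgeR, 19 on adding 0.25 CPM, 76 without a filter, 80 with DESeq2), 446 against 121 for the inhibitor with LPS, 4 against 0 without LPS (2 with DESeq2) and 318 against 64 for the inhibitor's difference of responses (118 with DESeq2). Leaving out a library gave as few as 477 for untreated KO and WT cells (without WT_UT replicate 1), 871 after LPS (without WT_LPS replicate 2), 18 for the difference of responses of KO and WT cells (without KO_UT replicate 1), 59 for the inhibitor with LPS (without WT_LPS replicate 2) and 30 for the inhibitor's difference of responses (without WT_UT replicate 1). The cause was not tested. Depth limits Dusp8 without LPS, at 7 to 10 reads over a group, and Dusp10 with LPS, at 40 to 70.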
